A study of Mus musculus with 6 samples.

Results

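The genes described here are the 8 genes Adora1, Adora2a, Adora2b, Nt5e, Entpd1, Entpd2, Adk and Slc29a1, which encode adenosine receptors and the proteins that make, remove and transport adenosine. They were chosen by symbol, with earlier results of these data known, and are 8 of the 32285 genes in the files. RNA was measured in single nuclei from frozen hippocampi of mice aged 18 to 20 months in 6 libraries. The 3 sevoflurane libraries came from mice that inhaled 2% of this volatile anaesthetic in 60% oxygen at 1 L/min for 6 h, and the 3 oxygen libraries from mice given 60% oxygen at the same flow for as long. All groups therefore share the high oxygen, and no group breathed room air. No genotype, strain or number of mice per library is given by the labels, so a p-value here reflects how far libraries differ, which may be technical. By their labels the first and second replicates are males and the third ones females. The sex-linked genes did not match the labels in 3 of the 6 libraries: Xist stood at 1332 CPM in sevoflurane replicate 1, labelled male, and at 1.17 CPM or less in the others, replicates 3 included.

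Adenosine is a breakdown product of ATP that acts on receptors at the cell surface. Outside the cell, ATP and ADP are cut to AMP by the ectonucleotidases of the Entpd family, and AMP is cut to adenosine by CD73, the product of Nt5e. The equilibrative transporter ENT1, encoded by Slc29a1, carries adenosine across the membrane, and inside the cell adenosine kinase, encoded by Adk, returns it to AMP. Of the receptors, the A1 receptor encoded by Adora1 couples to inhibitory G proteins and damps transmitter release in the hippocampus, while those encoded by Adora2a and Adora2b couple to stimulatory G proteins and raise cAMP.

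On mm10 the 3 receptor genes are short: Adora1 (ENSMUSG00000042429) spans 36209 bases on chromosome 1 (134199223 to 134235431, minus strand), Adora2a (ENSMUSG00000020178) 17908 bases on chromosome 10 (75316877 to 75334784, plus strand) and Adora2b (ENSMUSG00000018500) 17470 bases on chromosome 11 (62248984 to 62266453, plus strand). Of the genes for the outer enzymes, Nt5e (ENSMUSG00000032420) lies on chromosome 9 (88327197 to 88372092, plus strand), Entpd1 (ENSMUSG00000048120) on chromosome 19 (40612366 to 40741602, plus strand) and Entpd2 (ENSMUSG00000015085) on chromosome 2 (25395874 to 25401321, plus strand). Slc29a1 (ENSMUSG00000023942) spans 14407 bases on chromosome 17 (45585200 to 45599606, minus strand). Adk (ENSMUSG00000039197) is the longest of the 8, with 395996 bases on chromosome 14 (21052574 to 21448569, plus strand). Entpd1 overlaps the predicted gene Gm50132, and Entpd2 overlaps Npdc1, each on the same strand, so their counts are less certain. Adora1 overlaps Mybph and Slc29a1 overlaps Gm17080 on the opposite strand. Whether counting used strand is not given in the sources used here.

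RefSeq windows before annotated start sites (GRCm38.p6) were found for 7 of the 8 genes, with none for Adora2a. The 250 bases upstream of both start sites of Adk and Entpd1 are printed because the class map and the treatment comparison turn most on these genes, and each has 2 start sites far apart (23578 bases for Adk and 47404 for Entpd1). The Adk windows are chr14:21052324-21052573 and chr14:21075902-21076151, and the Entpd1 windows are chr19:40612116-40612365 and chr19:40659520-40659769, all on the plus strand and written 5′ to 3′. Capitals mark matches, on either strand, to the GC box GGGCGG, the cAMP response element TGACGTCA, the PU.1 site GAGGAAGT or the hypoxia response core ACGTG.
Adk start 1: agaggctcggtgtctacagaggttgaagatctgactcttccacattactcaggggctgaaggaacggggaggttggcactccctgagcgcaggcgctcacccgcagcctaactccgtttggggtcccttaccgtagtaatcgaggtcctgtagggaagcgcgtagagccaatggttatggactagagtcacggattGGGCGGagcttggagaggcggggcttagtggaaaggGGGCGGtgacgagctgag
Adk start 2: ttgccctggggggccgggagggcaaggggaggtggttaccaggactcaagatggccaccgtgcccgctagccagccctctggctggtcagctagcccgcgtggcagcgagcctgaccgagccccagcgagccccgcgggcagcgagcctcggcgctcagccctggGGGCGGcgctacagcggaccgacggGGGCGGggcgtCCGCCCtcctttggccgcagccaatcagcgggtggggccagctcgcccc
Entpd1 start 1: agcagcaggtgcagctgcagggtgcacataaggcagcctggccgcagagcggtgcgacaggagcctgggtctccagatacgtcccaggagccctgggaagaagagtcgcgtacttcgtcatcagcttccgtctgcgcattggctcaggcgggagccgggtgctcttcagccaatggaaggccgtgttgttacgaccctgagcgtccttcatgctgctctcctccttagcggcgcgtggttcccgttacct
Entpd1 start 2: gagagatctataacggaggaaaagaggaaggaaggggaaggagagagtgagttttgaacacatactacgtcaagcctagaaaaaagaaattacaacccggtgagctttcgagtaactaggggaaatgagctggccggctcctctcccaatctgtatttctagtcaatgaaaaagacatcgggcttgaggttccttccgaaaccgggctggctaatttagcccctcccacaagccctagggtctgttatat
The first Adk window held 2 GC boxes and the second 3, while neither Entpd1 window held one. Of 32851 RefSeq windows of this length, 32.7% held a GC box, 16.6% the ACGTG core, 2.44% the PU.1 letters and 1.55% the cAMP response element. No cAMP response element, PU.1 or ACGTG letters were found in these 4 windows. The second Adk window was 75.2% G or C with 24 CpG pairs, and the second Entpd1 window 47.2% with 8. Such matches only describe the letters, and counts per gene do not show which start site was used.

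After filtering, 51752 nuclei remained, 7716 to 9695 per library, from 56334621 to 72636984 deposited UMIs (unique molecular identifiers, the counted RNA molecules). Clusters were named from marker genes and are written as X-like. Of the 19 names, 15 had at least 20 nuclei in every library and were tested. Levels are CPM, UMIs of a gene scaled to the total of its class after TMM normalization, and are given over 6 libraries, with both treatments joined. Dentate granule-like, CA1-like, CA2-like and CA3-like neurons of the hippocampus were all found by their markers. The number of nuclei behind a tested class ran from 230 (newly formed oligodendrocyte-like) to 9847 (dentate granule-like). Cluster 2, with 4574 nuclei and a median of 794 UMIs, stayed unnamed: Ttr, Chchd10 and Chchd2 led it, and fewer than 3 of its 10 leading genes were markers of one type. Its share was 9.41% of oxygen and 8.34% of sevoflurane nuclei. Because such barcodes can hold free RNA, levels of the genes are also set against the level in this cluster, as a percentage, beside the same percentage for the cluster's 10 leading genes. This comparison was chosen after the values were seen. A level at or below that range is read as background, meaning that this comparison cannot tell it apart from free RNA. Some leading genes are themselves markers of a class, as Sst is of inhibitory-like neurons. Such a level therefore does not show that a class lacks the gene. Striatal or septal inhibitory-like nuclei numbered 84 with oxygen and 647 with sevoflurane, and choroid plexus epithelium-like nuclei 174 and 0. Of the distinct barcode sequences deposited, 331 of 53492 occurred in more than 1 library.

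Adora1 RNA was found in all 15 classes and was highest in oligodendrocyte-like nuclei, at 82.6 ± 7.54 CPM (SD, n = 6; lowest 73.0, median 81.3, highest 93.9). Oligodendrocyte precursor-like nuclei followed at 77.7 ± 11.5 CPM, then CA3-like at 64.8 ± 5.91 and CA2-like neurons at 61.4 ± 8.50 CPM. The next 5 classes lay close together, between 44.6 CPM in CA1-like and 48.3 CPM in newly formed oligodendrocyte-like nuclei, with dentate granule-like neurons at 47.3 ± 5.76 and astrocyte-like nuclei at 45.2 ± 5.78 CPM. Inhibitory-like neurons were lowest, at 13.1 ± 3.28 CPM. No pair of neighbours in this order differed in the same direction in all 6 libraries, but classes farther apart did. Oligodendrocyte-like nuclei stood above CA3-like neurons 1.27-fold in 6 of 6 libraries, CA3-like above CA1-like 1.45-fold in 6 of 6, and CA1-like above inhibitory-like neurons 3.41-fold in 6 of 6.

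The unnamed low-UMI cluster held more Adora1 than any tested class, 109 CPM over all libraries. Against that level, CA3-like neurons stood at 59.5%, CA2-like at 56.7%, CA1-like at 41.2% and dentate granule-like at 43.1%. The leading genes of the cluster stood much lower in the same classes, at 5.71% to 10.6%, 6.00% to 10.3%, 7.48% to 11.7% and 9.33% to 15.8%. Oligodendrocyte-like nuclei stood at 75.6%, with the leading genes at 32.5% to 42.3%, and oligodendrocyte precursor-like nuclei at 71.6%, with 22.0% to 29.0%. Astrocyte-like nuclei were nearer to this range, at 41.3% against 30.7% to 33.3%. In inhibitory-like neurons the 12.1% fell within the range of 10.2% to 26.0%, in ependymal-like nuclei the 31.7% within 18.2% to 52.6%, in endothelial-like nuclei the 24.5% within 21.9% to 95.0%, and in microglia-like nuclei the 38.4% lay below 40.7% to 57.5%. Adora1 in these last 4 classes is therefore read as background. Striatal or septal inhibitory-like neurons (16.0 ± 9.25 CPM), at 12.8% against a median of 14.2%, are read the same way. With each nucleus thinned to 2000 UMIs, 12.6% of CA3-like and 15.1% of oligodendrocyte-like nuclei held an Adora1 UMI, against 2.68% of inhibitory-like nuclei. Unthinned, the shares were 53.4%, 17.6% and 11.0%, at median depths of 12979, 2282 and 8827 UMIs.

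Some classes joined clusters of unlike level. In CA1-like neurons, cluster 4 held 51.2 CPM of Adora1 and cluster 6, led by Pde11a, 36.1 CPM, both over all libraries and scaled to plain totals. The subicular or cortical excitatory-like class joined 7 clusters, in which Adora1 ran from 26.8 CPM (cluster 19) to 74.0 CPM (cluster 20) and Adk from 95.4 CPM (cluster 7) to 239 CPM (cluster 8).

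Adora2a was scarce, with 154 UMIs in all nuclei kept. Of these, 50 came from endothelial-like nuclei, where its level was 14.3 ± 7.14 CPM (lowest 7.36, highest 27.9). Astrocyte-like nuclei had 1.57 ± 0.613 CPM, 9.12-fold less and lower in 6 of 6 libraries. Striatal or septal inhibitory-like neurons, whose list includes striatal markers, held 6 UMIs. No UMI was seen in CA2-like, Cajal-Retzius-like, ependymal-like or newly formed oligodendrocyte-like nuclei, which allows up to 0.602, 2.03, 1.26 and 1.66 CPM. These limits cover counting error only. The endothelial-like cluster also had the pericyte marker Rgs5 among its 10 leading genes, and its part in the Adora2a signal was not tested.

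Adora2b, the low-affinity receptor, was highest among tested classes in ependymal-like nuclei (15.3 ± 8.19 CPM, 38 UMIs), followed by oligodendrocyte precursor-like (12.7 ± 3.74 CPM), newly formed oligodendrocyte-like (8.47 ± 10.7 CPM, 14 UMIs) and astrocyte-like nuclei (8.46 ± 3.65 CPM). Ependymal-like and oligodendrocyte precursor-like nuclei did not differ in one direction in all libraries. Astrocyte-like exceeded endothelial-like nuclei (3.82 CPM) 2.21-fold in 6 of 6 libraries. In every tested neuron class except Cajal-Retzius-like (2.12 CPM, 2 UMIs) and striatal or septal-like (1.00 CPM, 3 UMIs) the level was 0.782 CPM or less. Against the 5.13 CPM of the unnamed low-UMI cluster, these first 4 classes stood at 312%, 249%, 151% and 170%, above the leading genes. CA1-like (9.18%), dentate granule-like (10.5%), inhibitory-like (15.4%), striatal or septal inhibitory-like (10.1%), subicular or cortical excitatory-like (10.4%), Cajal-Retzius-like (26.4%) and endothelial-like nuclei (68.5%) fell within the range of the leading genes, and oligodendrocyte-like (31.4%) and microglia-like nuclei (5.54%) below it. Adora2b in these 9 classes is read as background. CA3-like neurons stood at the upper edge of their range (10.7% against 10.6%) and CA2-like neurons at 15.6% against 10.3%.

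**Figure D1:**
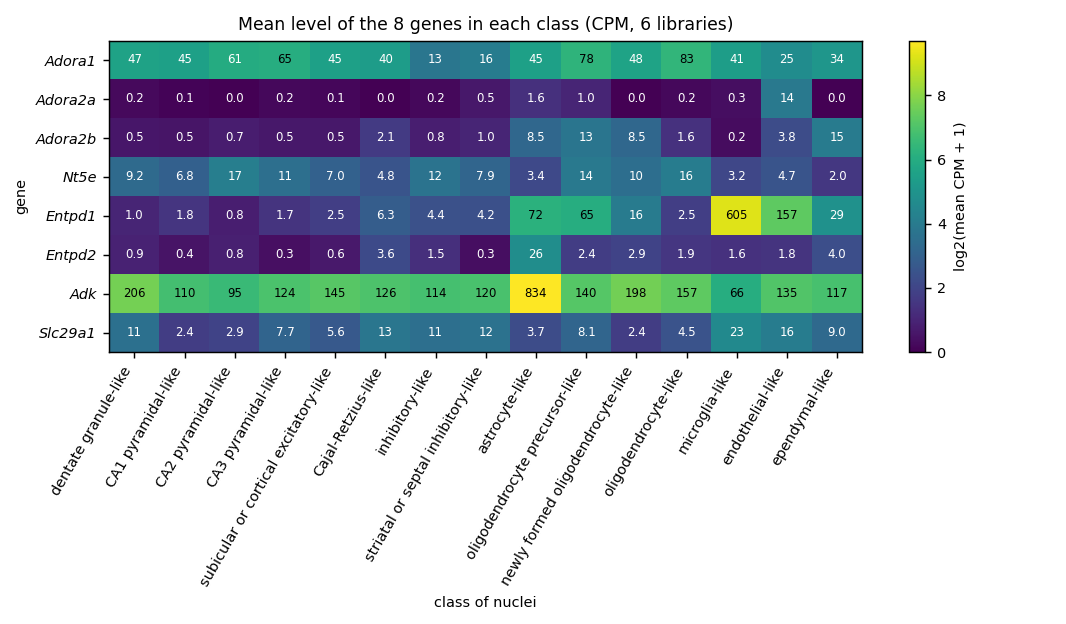
Mean level of the 8 genes (rows) in the 15 tested classes (columns) over 6 libraries; colour is log2 of mean CPM plus 1 and the printed values are mean CPM. Adk is highest in astrocyte-like nuclei, Entpd1 is high in microglia-like and endothelial-like nuclei, Entpd2 in astrocyte-like nuclei, and Adora1 is spread over most classes.

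Entpd1 encodes CD39, which cuts ATP and ADP to AMP and is known from microglia and vessels. Its level was 605 ± 88.2 CPM in microglia-like nuclei (lowest 479.5, highest 700.5), 157 ± 25.9 in endothelial-like, 72.3 ± 15.8 in astrocyte-like and 64.5 ± 17.0 CPM in oligodendrocyte precursor-like nuclei. Microglia-like exceeded endothelial-like nuclei 3.85-fold and endothelial-like exceeded astrocyte-like nuclei 2.17-fold, each in 6 of 6 libraries. Neurons held little: CA1-like 1.84, CA3-like 1.72 and dentate granule-like 1.02 CPM. At 2000 UMIs per nucleus, 66.5% of microglia-like nuclei held an Entpd1 UMI, against 24.7% of endothelial-like and 0.208% of dentate granule-like nuclei. The unthinned shares were 64.0%, 36.5% and 0.772%, at median depths of 2048, 3083 and 7084 UMIs. As a check on stray microglial RNA, the summed microglia markers stood at 2.72% of their microglia-like level in endothelial-like, 1.41% in astrocyte-like and 1.51% in oligodendrocyte precursor-like nuclei. Entpd1 stood at 26.0%, 11.95% and 10.7% there. In dentate granule-like neurons Entpd1 stood at 0.169%, below the markers' 0.732%, and is read as background. The unnamed low-UMI cluster held 9.15 CPM.

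Entpd2, whose product prefers ATP and lets ADP accumulate, was an astrocyte gene here. Astrocyte-like nuclei held 25.8 ± 5.49 CPM (lowest 20.0, highest 32.1), 6.40-fold above ependymal-like nuclei (4.03 CPM) in 6 of 6 libraries. All other tested classes lay between 0.297 and 3.58 CPM. In dentate granule-like, microglia-like and endothelial-like nuclei the share of the astrocyte-like level (3.50%, 6.34% and 6.93%) was below that of the astrocyte markers (9.36%, 7.80% and 8.73%). In ependymal-like nuclei the 2 shares were 15.6% and 14.2%. Against the 4.02 CPM of the unnamed low-UMI cluster, Entpd2 in CA1-like (10.6%), CA3-like (8.66%), striatal or septal inhibitory-like (12.8%), microglia-like (42.5%) and endothelial-like nuclei (29.2%) fell within the range of the leading genes and is read as background, while astrocyte-like nuclei stood at 620%.

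Nt5e had a flatter map at low levels. Among tested classes CA2-like neurons were highest at 16.7 ± 2.67 CPM (lowest 12.7, highest 20.0), next to oligodendrocyte-like (15.8 ± 3.80), oligodendrocyte precursor-like (14.1 ± 3.46) and inhibitory-like nuclei (11.95 ± 1.58 CPM). No neighbours in this order differed in 6 of 6 libraries. CA2-like neurons exceeded CA3-like (10.7 CPM) 1.57-fold and CA1-like neurons (6.79 CPM) 2.46-fold, each in 6 of 6. Astrocyte-like nuclei, at 3.43 ± 1.23 CPM, were 4.61-fold below oligodendrocyte-like nuclei in 6 of 6. The unnamed low-UMI cluster held 4.24 CPM. Microglia-like nuclei, with 3.22 CPM from 11 UMIs, stood at 73.8% of it, against 40.7% to 57.5% for its leading genes.

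**Figure D2:**
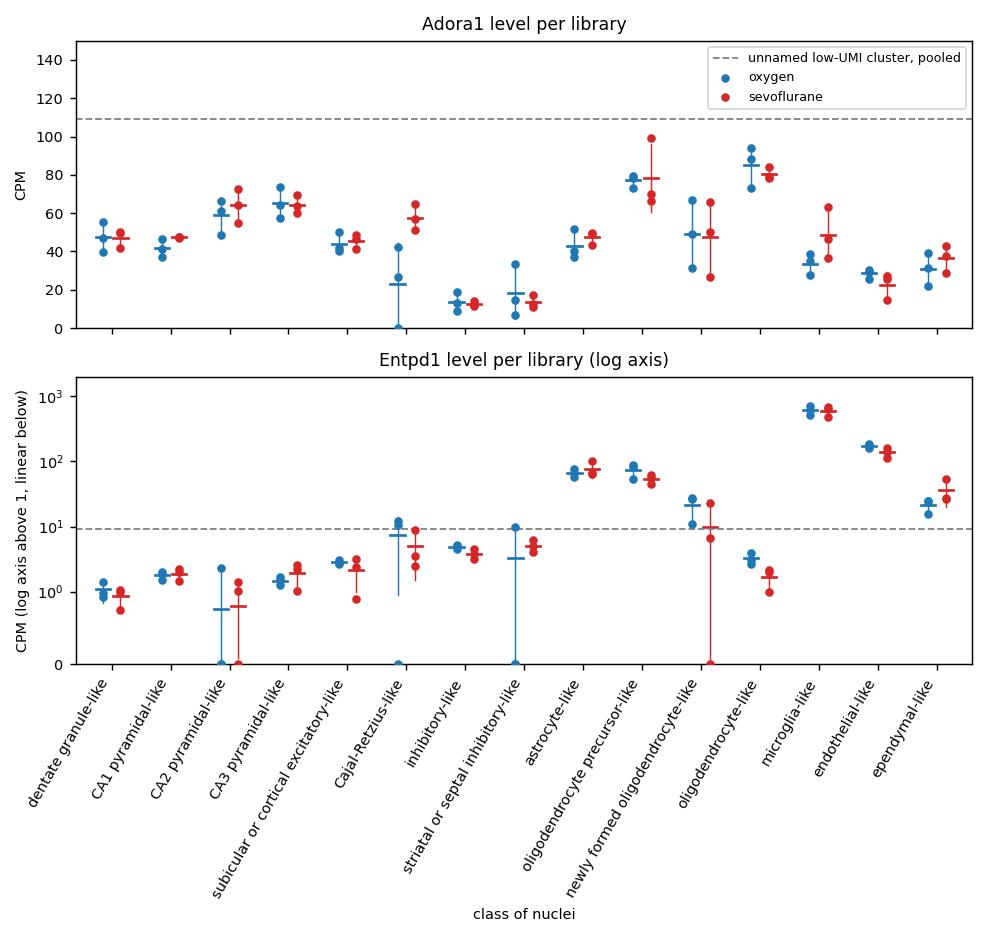
Adora1 and Entpd1 level in each library (points, CPM) by class, for oxygen (blue) and sevoflurane (red); short bars are group means, thin lines 1 SD (n = 3), and the dashed line is the pooled level of the unnamed low-UMI cluster. All class means of Adora1 lie under the dashed line at 109 CPM, whereas Entpd1 in microglia-like nuclei lies far above its line at 9.15 CPM.

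Adk was highest in astrocyte-like nuclei, and UMIs of it were seen in all 15 classes. Against the 96.0 CPM of the unnamed low-UMI cluster it stood at 66.1% or more in each, above the leading genes there. The astrocyte-like level was 834 ± 129 CPM (lowest 647, median 884, highest 957), 4.05-fold above dentate granule-like neurons (206 ± 39.4 CPM) in 6 of 6 libraries. Newly formed oligodendrocyte-like (198 ± 52.1), oligodendrocyte-like (157 ± 20.8) and subicular or cortical excitatory-like nuclei (145 ± 15.5 CPM) followed, and microglia-like nuclei were lowest at 65.6 ± 15.8 CPM. Dentate granule-like exceeded CA1-like neurons (110 ± 19.6 CPM) 1.87-fold in 6 of 6. Adk in dentate granule-like neurons stood at 24.7% of its astrocyte-like level, where 9 astrocyte markers together stood at 9.36%. In CA1-like and oligodendrocyte-like nuclei it stood at 13.2% and 18.8%, against 1.81% and 5.33% for the markers. In microglia-like and ependymal-like nuclei Adk and the markers stood level, at 7.87% and 7.80% and at 14.1% and 14.2%, so stray astrocyte RNA cannot be told apart from their own there. With 2000 UMIs per nucleus, 74.4% of astrocyte-like and 11.1% of microglia-like nuclei held an Adk UMI (82.3% and 11.3% unthinned, at median depths of 2986 and 2048 UMIs). Within CA1-like neurons, cluster 6 held 155 CPM and cluster 4 held 75.9 CPM, over all libraries.

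Slc29a1, the gene of the transporter ENT1, was low throughout. Microglia-like nuclei held 23.1 ± 7.52 CPM (81 UMIs) and endothelial-like nuclei 15.9 ± 4.90 CPM (53 UMIs), a difference seen in 5 of 6 libraries. Dentate granule-like (11.0 ± 1.96 CPM) and inhibitory-like neurons (10.7 ± 2.01 CPM) exceeded CA1-like neurons (2.38 ± 0.562 CPM) 4.61-fold and 4.48-fold in 6 of 6. Astrocyte-like nuclei held 3.72 CPM, 30.7% of the low-UMI cluster's 12.1 CPM and within the 30.7% to 33.3% of its leading genes, which is read as background. Oligodendrocyte-like nuclei, at 37.1% against 32.5% to 42.3%, are read the same way.

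The 8 genes did not share one pattern over classes. Across the 15 class means of log2(CPM + 1), Pearson's r was 0.75 between Entpd2 and Adk, 0.68 between Adora2b and Entpd2, and -0.58 between Nt5e and Entpd1. These describe the same 15 classes of the same libraries. Among 12911 genes with at least 10 CPM in a class, those most like Adk were Paqr8 (r = 0.88), Ahcyl1 (0.87) and the urea cycle gene Otc (0.86). Ppp1r3g (0.97), Gjb6 (0.95) and Acsbg1 (0.95) were most like Entpd2, and Zfp36l2 (0.98), Apobec3 (0.97) and Il15 (0.96) most like Entpd1. For Adora1 the nearest were Inka2 (0.81), Gpm6b (0.79) and Sdr42e1 (0.78), and for Nt5e Unc5c (0.84), Lrp1b (0.83) and Dscaml1 (0.83). Itga1 (0.97), Des (0.96) and Slc6a13 (0.96) were nearest to Adora2a, Kank1 (0.93), Prrx1 (0.91) and Tcf7l1 (0.91) to Adora2b, and Klhdc8b (0.86), Actr1b (0.86) and Zfp148 (0.80) to Slc29a1.

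Sevoflurane was then compared with oxygen within each class, the comparison that the design sets up, on UMIs summed per library (edgeR quasi-likelihood test, Benjamini-Hochberg adjustment over all genes of the class). Of the 120 pairs of a gene and a class, 59 passed the filter on low counts: 15 each for Adora1 and Adk, 10 for Entpd1, 8 each for Nt5e and Slc29a1, 2 for Entpd2, 1 for Adora2b and 0 for Adora2a. None of the 59 was called at an adjusted p under 0.05, where 1.87% of all 163868 tested pairs of a gene and a class were called. At an unadjusted p under 0.05 there were 7 of the 59, beside 13.6% of all pairs. DESeq2 called 2 of the 59, Adk in CA1-like and in dentate granule-like neurons, where it called 2.31% of all pairs. The groups' libraries did not overlap in 12 of the 59 pairs, against 19.1% of all pairs. In these sums a change of the mix of clusters within a class and a change of RNA within its nuclei cannot be told apart.

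Adk was lower after sevoflurane in 15 of 15 classes, without passing the test in any. The count includes microglia-like and ependymal-like nuclei, where Adk could not be told apart from stray astrocyte RNA. In dentate granule-like neurons the oxygen libraries held 213.5, 275 and 214 CPM and the sevoflurane libraries 162, 179 and 191 CPM. All 3 sevoflurane libraries lay under all 3 oxygen libraries, and the log2 fold change was -0.40 (SE 0.11, adjusted p 0.0703). In astrocyte-like nuclei the values were 919, 957 and 928 CPM with oxygen and 849, 647 and 704 CPM with sevoflurane, again without overlap, a log2 fold change of -0.35 (SE 0.13, adjusted p 0.193). In CA1-like neurons they were 119, 131 and 124 CPM with oxygen and 84.0, 87.7 and 116 CPM with sevoflurane, a log2 fold change of -0.38 (SE 0.12, adjusted p 0.130). Over all classes the fold change ran from -0.48 in striatal or septal inhibitory-like to -0.10 in oligodendrocyte precursor-like nuclei, with a median of -0.27. In 6 classes no sevoflurane library reached any oxygen library, where 10.2% of all pairs fell this way. In the sum over all nuclei, where shares of classes enter, the fold change was -0.35 (SE 0.09, adjusted p 0.102). There edgeR called none of the 8 genes, beside 1.9% of 20763 genes, and DESeq2 called Adk (adjusted p 0.0152). The share of all genes that DESeq2 called in this sum is not given here, and the 1.9% holds for edgeR only.

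Several values stand beside the low Adk. The sum of the 9 astrocyte markers was also lower in some classes. In astrocyte-like nuclei it ran from 13640 to 14332 CPM with oxygen and from 10062 to 12788 CPM with sevoflurane. In dentate granule-like neurons it ran from 1253 to 1352 and from 1027 to 1095 CPM. In CA1-like (220 to 245 and 181 to 241 CPM) and CA3-like neurons (425 to 449 and 406 to 447 CPM) the groups overlapped. Of 3701 genes tested in all classes, 95 (2.57%) were lower in every class, and among the 273 with a span at least that of Adk 20 (7.33%) were. After a correction for gene span fitted within each library, Adk was lower in 13 of 15 classes, with 0.05 in inhibitory-like and 0.09 in oligodendrocyte precursor-like nuclei. The fold change was then -0.20 in dentate granule-like neurons, -0.19 in astrocyte-like nuclei and -0.22 in CA1-like neurons, against -0.40, -0.35 and -0.38 without the correction. Without sevoflurane replicate 1 Adk was called in astrocyte-like nuclei (-0.47, adjusted p 0.0462), and without sevoflurane replicate 3 in CA1-like neurons (-0.54, adjusted p 0.0108). Within CA1-like neurons the mix moved: cluster 4, low in Adk, made up 57.7% of the class with oxygen and 64.6% with sevoflurane. Scaled to plain totals, Adk in cluster 6 was 171 ± 9.09 with oxygen and 137 ± 23.0 CPM with sevoflurane (SD, n = 3). In cluster 4 it was 77.9 ± 3.99 and 74.8 ± 11.3 CPM, and the groups overlapped in both clusters. Dentate granule-like neurons also split by group when clustered more finely, at resolution 2, which was looked at after the data were seen. Cluster 3 of that clustering held 65.2% of the oxygen and 20.0% of the sevoflurane nuclei of the class, and cluster 4 held 13.03% and 53.8%, while cluster 7 held 21.1% and 25.1%. On plain totals too, Adk within cluster 3 was 220.5 ± 32.7 CPM with oxygen and 158 ± 21.2 CPM with sevoflurane. Within cluster 7 it was 237 ± 32.0 and 199 ± 10.1 CPM, without overlap in either cluster. Within cluster 4 the values were 222 ± 42.2 and 188 ± 15.3 CPM, with overlap. Genes that differed between the groups took part in the clustering, so a change within nuclei and a change of the mix cannot be told apart here. Plain totals set the median gene higher after sevoflurane in most classes, by up to 0.13 on the log2 scale in dentate granule-like neurons. Adk was then still lower in 15 of 15 classes, at -0.27 in dentate granule-like and -0.26 in astrocyte-like nuclei. The part of gene length, of stray astrocyte RNA or of the cluster mix in the low Adk was not tested.

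**Figure D3:**
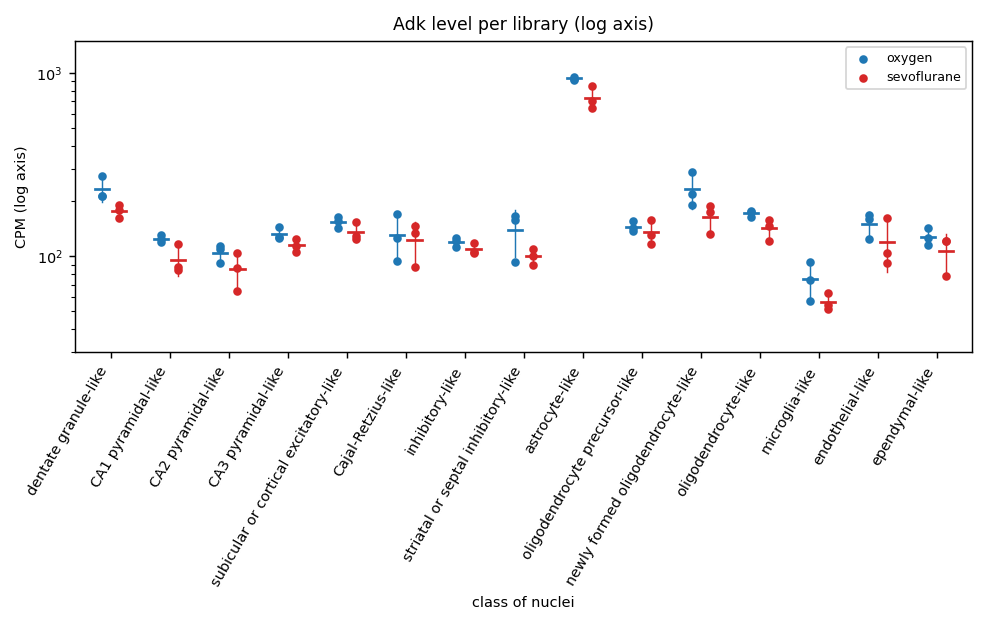
Adk level in each library (points, CPM on a log axis) by class, for oxygen (blue) and sevoflurane (red); short bars are group means and thin lines 1 SD (n = 3). The sevoflurane mean is under the oxygen mean in all 15 classes, and in 6 of them the points of the groups do not overlap.

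Among the receptors, Adora1 had fold changes on both sides of 0, 8 classes higher and 7 lower, with a median of 0.03. These counts include inhibitory-like, ependymal-like, endothelial-like, microglia-like and striatal or septal inhibitory-like nuclei, where its level is read as background. Their fold changes ran from -0.31 in striatal or septal inhibitory-like to 0.52 in microglia-like nuclei. In CA1-like neurons the oxygen libraries held 46.6, 41.3 and 37.0 CPM and the sevoflurane libraries 47.3, 47.7 and 47.7 CPM. The groups did not overlap, and the log2 fold change of 0.19 (SE 0.09) did not pass (p 0.0624, adjusted p 0.318). Scaled to plain totals, Adora1 in cluster 4 alone was 44.2 ± 4.18 with oxygen and 57.0 ± 2.02 CPM with sevoflurane, without overlap. In cluster 6 it was 35.0 ± 4.28 and 37.6 ± 2.61 CPM, with overlap. With plain totals the median gene of the CA1-like class itself stood at 0.13 on the log2 scale, against 0.02 with TMM. The share of all genes without overlap in these clusters is not given here. Dentate granule-like (-0.01, SE 0.12), CA3-like (-0.01, SE 0.10) and oligodendrocyte-like nuclei (-0.08, SE 0.12) had fold changes near 0. Cajal-Retzius-like nuclei had the widest one, 1.10 (SE 0.53, adjusted p 0.244), with 26.9, 42.5 and 0 CPM in the oxygen libraries and 51.2, 64.6 and 57.1 CPM in the sevoflurane libraries. That class changed its makeup: cluster 29, with 28.8 CPM of Adora1, gave 99 of its oxygen and 89 of its sevoflurane nuclei, while cluster 33, with 64.1 CPM and led by Ebf2, gave 5 and 145. A change within its cells and this change of mix cannot be told apart. Adora2b was tested only in astrocyte-like nuclei, at 5.13, 12.9 and 12.1 CPM with oxygen and 5.58, 5.01 and 10.1 CPM with sevoflurane (-0.49, SE 0.37, adjusted p 0.592).

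Of the outer enzymes, Entpd1 in microglia-like nuclei stood at 700.5, 520.1 and 616 CPM with oxygen and at 684, 479.5 and 628 CPM with sevoflurane, a difference well inside the spread of the libraries (-0.03, SE 0.15, adjusted p 0.982). In endothelial-like nuclei it was 182, 163 and 179 CPM with oxygen and 114, 140 and 163 CPM with sevoflurane, without overlap (-0.30, SE 0.18, adjusted p 0.498). In oligodendrocyte precursor-like nuclei the fold change was -0.45 (SE 0.21, p 0.0435, adjusted p 0.408), with overlapping libraries. The widest fold change of Entpd1 was in ependymal-like nuclei, with 24.9, 15.7 and 24.5 CPM in the oxygen and 54.5, 27.4 and 26.2 CPM in the sevoflurane libraries, without overlap (0.74, SE 0.42, adjusted p 0.587). Of the 10 classes tested, Entpd1 was higher in 4 and lower in 6. Those counts include dentate granule-like neurons, where its level is read as background. As a share of the microglia-like level, Entpd1 also stood below the microglia markers in other neurons counted. These were CA1-like (0.305% against 0.577%), CA3-like (0.284% against 0.584%), subicular or cortical excitatory-like (0.412% against 0.676%) and inhibitory-like neurons (0.720% against 0.773%). There Entpd1 stood above the range of the low-UMI cluster's leading genes. Nt5e was higher in 7 of 8 classes, by 0.44 at most (oligodendrocyte precursor-like, SE 0.39, adjusted p 0.741), with overlapping libraries in all 8. In oligodendrocyte-like nuclei it was 13.3, 16.9 and 9.61 CPM with oxygen and 19.7, 19.1 and 16.4 CPM with sevoflurane (0.43, SE 0.21, adjusted p 0.421). Entpd2 in astrocyte-like nuclei had a fold change of -0.26 (SE 0.21, adjusted p 0.629). Slc29a1 ran from -0.37 (SE 0.37) in microglia-like to 0.39 (SE 0.37) in oligodendrocyte-like nuclei, where its level is read as background. The next highest was 0.29 (SE 0.16) in dentate granule-like neurons, with the smallest adjusted p of the 8 classes, 0.388.

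**Figure D4:**
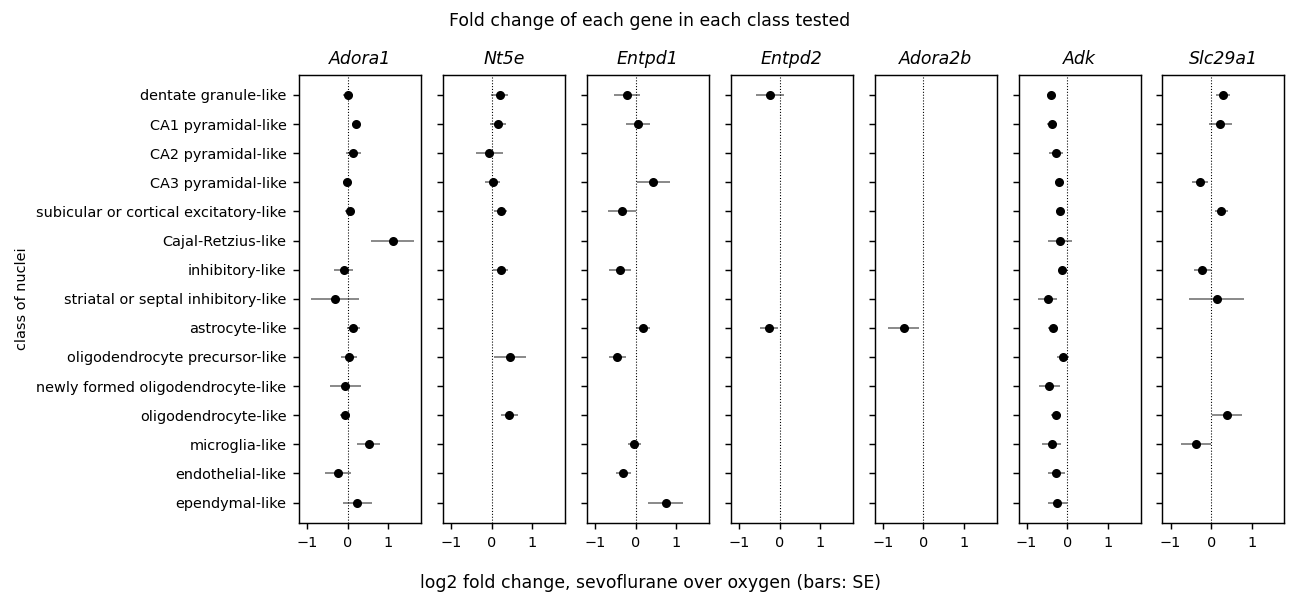
Log2 fold change of sevoflurane over oxygen (points, with SE bars) for each gene in each class where it was tested; Adora2a was tested in none. Adk lies left of 0 in all 15 classes, and the Adora1 points lie on both sides, with the widest in Cajal-Retzius-like nuclei at 1.10.

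Whether a response differed between classes was tested on the within-library difference between each class and dentate granule-like neurons (limma), in 52 pairs. None was called, against 0.688% of all such pairs, and the smallest adjusted p was 0.248. At an unadjusted p under 0.05 there were 5 of the 52, beside 9.92% of all such pairs. The Adk fold change minus that of dentate granule-like neurons was 0.26 (SE 0.09, adjusted p 0.420) in inhibitory-like, 0.18 (SE 0.07, adjusted p 0.359) in CA3-like and 0.21 (SE 0.08, adjusted p 0.434) in subicular or cortical excitatory-like neurons. The same difference for Slc29a1 was -0.55 (SE 0.21, adjusted p 0.342) in CA3-like and by -0.51 (SE 0.20, adjusted p 0.517) in inhibitory-like neurons.

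The wider pathway was read from 3 lists. The list of other adenosine turnover genes had 1 higher and 2 lower calls in 352 tested pairs (0.852%), and the list of ATP release and P2 receptor genes 1 higher and 2 lower in 176 (1.7%). The list of adenosine receptor effectors, such as G proteins, adenylyl cyclases and phosphodiesterases, had 2 higher and 17 lower calls in 488 (3.89%). These calls are read beside the 1.87% of all pairs. The lists were chosen with earlier results of these data known, so these shares only describe them. The median fold changes of the lists were -0.01, -0.03 and -0.06, against 0.01 over all pairs. Of the 25 calls, 5 came from Cajal-Retzius-like nuclei, where 9.59% of genes were called beside the changed mix of clusters. Without that class 2 were higher and 18 lower. Among all genes called in the classes that hold these calls, lower ones also outnumbered higher ones, except in endothelial-like nuclei (141 higher, 134 lower). Dentate granule-like neurons had 232 higher and 511 lower calls, CA1-like 84 and 237, CA3-like 29 and 179, and inhibitory-like 51 and 164. Subicular or cortical excitatory-like neurons had 62 and 141, astrocyte-like nuclei 123 and 159, oligodendrocyte-like 20 and 96, and oligodendrocyte precursor-like 12 and 99. The split between directions moved with the scaling and with the test. Over all classes, the reported fit gave 4 higher and 21 lower calls, and RLE normalization, another scaling, 4 and 25. Plain totals gave 8 and 12 and the span correction 5 and 10. DESeq2, another test, gave 3 and 40.

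Adcy8, a calcium-stimulated adenylyl cyclase (chromosome 15, 64697084 to 64922296), was lower in 13 of 13 classes tested and called in 5. It fell in astrocyte-like nuclei from 88.6, 108 and 82.6 CPM to 47.8, 32.5 and 40.2 CPM, by 1.24 on the log2 scale (SE 0.16, adjusted p 0.000518). It also fell in subicular or cortical excitatory-like (by 0.75, SE 0.12), CA3-like (by 0.74, SE 0.14) and inhibitory-like neurons (by 0.63, SE 0.11). Its fall by 2.29 (SE 0.34) in Cajal-Retzius-like nuclei stands beside the changed mix. The direction held in every class tested under all 15 alternatives.

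Pde4b, a cAMP phosphodiesterase (chromosome 4, 102087543 to 102607259), was lower in 14 of 15 classes and called in 3. It fell in oligodendrocyte-like nuclei from 6573, 7936 and 7065 CPM to 4682, 3818 and 4000 CPM, by 0.79 (SE 0.13, adjusted p 0.0124). In oligodendrocyte precursor-like nuclei it fell by 0.53 (SE 0.10, adjusted p 0.00442) and in inhibitory-like neurons by 0.73 (SE 0.11, adjusted p 0.0057). With the span correction Pde4b was lower in 12 of 15 classes, and its calls in oligodendrocyte-like and oligodendrocyte precursor-like nuclei were lost.

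**Figure D5:**
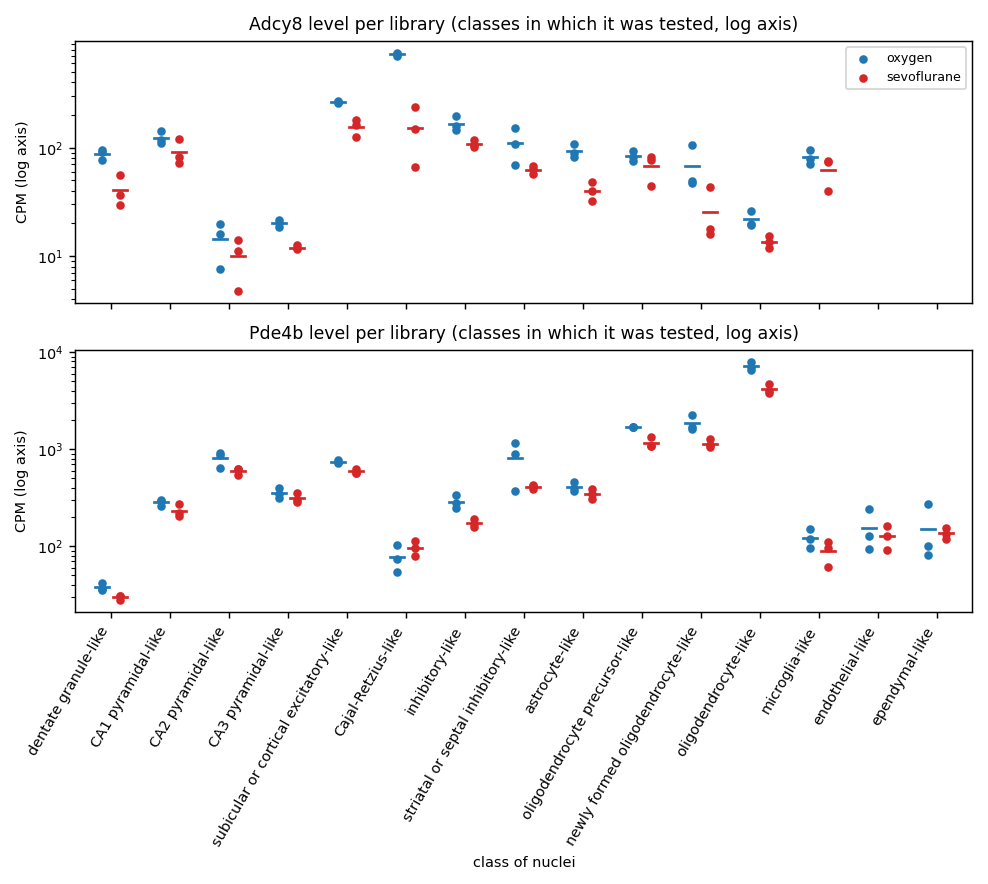
Adcy8 and Pde4b level in each library (points, CPM on a log axis) by class, for oxygen (blue) and sevoflurane (red), in the classes where each was tested; short bars are group means. In astrocyte-like nuclei all sevoflurane points of Adcy8 lie under all oxygen points, as do those of Pde4b in oligodendrocyte-like nuclei.

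The cyclase gene Adcy2 fell in astrocyte-like nuclei by 0.57 (SE 0.13) and in dentate granule-like neurons by 0.56 (SE 0.07), and Adcy9 in CA1-like by 0.34 (SE 0.06) and CA3-like neurons by 0.32 (SE 0.07). Kcnj3, which encodes the GIRK1 potassium channel opened through the A1 receptor, fell in dentate granule-like neurons by 0.46 (SE 0.09) and in inhibitory-like neurons by 0.48 (SE 0.08). The G protein gene Gng7 fell in dentate granule-like neurons by 0.36 (SE 0.07). Among Cajal-Retzius-like nuclei Gnaq fell by 1.02, and Pde4d and Rapgef4 rose by 1.19 and 1.01. From the turnover list, the adenylate kinase gene Ak5 fell in CA1-like neurons by 0.35 (SE 0.07) and rose in endothelial-like nuclei by 0.85 (SE 0.22), and Ahcyl2 fell in dentate granule-like neurons by 0.29 (SE 0.07). From the release list, Lrrc8a, a subunit of volume-regulated anion channels, rose in endothelial-like nuclei from 63.0, 85.6 and 52.4 CPM to 169, 174 and 144 CPM, by 1.26 (SE 0.21). P2ry12 and P2ry14 were lower in dentate granule-like neurons (-0.42, SE 0.09, and -0.41, SE 0.09). Both overlap Med12l on the opposite strand, so their reads and its own cannot be told apart without strand. The 6 genes called in dentate granule-like neurons stand beside the split of that class at resolution 2. Scaled to plain totals, their mean was lower with sevoflurane in each of its clusters 3, 4 and 7. The libraries of the groups did not overlap for 5 of the 6 in cluster 3, 2 in cluster 4 and 6 in cluster 7. The share of all genes without overlap in these clusters is not given here. The 6 genes were called in the same nuclei, so these counts are no separate support. The same limit of strand holds for Ak5, which overlaps Zzz3, and for Adcy8, Adcy2 and Lrrc8a, which overlap predicted genes of unknown role.

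Of the 20 calls outside Cajal-Retzius-like nuclei, 3 were kept under all alternatives run: Adcy8 in astrocyte-like nuclei, Pde4b in inhibitory-like neurons and Lrrc8a in endothelial-like nuclei. The other 17 were lost under 1 to 10 alternatives. The span correction lost 12 of the 20, and leaving out 1 library lost 10 (oxygen 1), 15 (oxygen 2), 9 (oxygen 3), 1 (sevoflurane 1), 10 (sevoflurane 2) and 6 (sevoflurane 3).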

How the data were processed

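Per the labels' protocols, nuclei from frozen hippocampi were made into 10x 3' libraries. The submitters' processing notes name fastp, Cell Ranger 7.1.0 and mm10. The values are raw UMI counts per gene and barcode, as deposited by the authors, and whether intronic reads were counted is not given in the sources used here. Barcodes under 500 UMIs or 300 genes, or over 5% mitochondrial UMIs, were dropped, which left 53287 of 53824. Scrublet scores over 0.274, the median of the 5 automatic thresholds that worked, marked 1535 doublets, which were removed after clustering. Leiden clustering (igraph 0.11.9, resolution 1) used 3000 variable genes, chosen with scanpy 1.11.5 without the members and listed genes. It gave 38 clusters, of which 31 were named from marker lists. A cluster with few UMIs stayed unnamed by a rule set after the data were seen. Counts were summed per library and class and tested in R 4.3.3 with edgeR 4.0.16 (TMM, filterByExpr, robust quasi-likelihood fit), with DESeq2 1.42.0 as an alternative. Differences between classes were tested with limma 3.58.1 on log2 CPM (prior count 2). The fits were tested on simulated data. Totals of tested classes ranged from 73620 UMIs (Cajal-Retzius-like) to 15957714 UMIs (dentate granule-like) per library, which limits the precision of small classes. All 8 genes are named, and of each list up to 4 called genes per class with the smallest p. The genes and lists were chosen with earlier results of these data known. A fit with plain totals and one without choroid plexus-like and striatal or septal-like nuclei were added after the data were seen. So were levels within the clusters of resolution 2 and a count of the reported calls without the Cajal-Retzius-like class.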

Additional observations from a re-analysis of the deposited data

How the results depend on the processing

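Of 59 pairs of an adenosine gene and a class, edgeR called 0 in the reported fit and DESeq2 2. A fit with no low-count filter called 2 of 116 pairs, and fits without 1 library called 0 to 1 of 58 to 66 pairs. In the sum over all nuclei DESeq2 called 1 and the fits without 1 library 0. Response differences between classes gave 0 in every alternative run. Of 1016 pairs of the pathway lists, 25 were called in the reported fit, 43 by DESeq2 and 15 with the length correction. With no filter 60 of 1542 pairs were called. Fits without 1 library called 13 to 32 of 988 to 1061 pairs. Among these were 16 without oxygen 1, 13 without oxygen 2, 15 without oxygen 3 and 16 without sevoflurane 2. Over all genes 1.87% of pairs were called in the reported fit and 2.31% by DESeq2. The shares of the other fits, and of DESeq2 in the sum over all nuclei, are not given here. With the replicate number as a block the counts were 0, 0 and 15, and 10 list pairs with block and length correction. Same-numbered libraries correlated at -0.165, -0.0639 and 0.0279 in their deviations, and libraries of unlike number at -0.119 to 0.176. No pairing by number was seen, but so few values cannot exclude one.

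Small fold changes of the genes crossed 0. Adk in Cajal-Retzius-like nuclei ran from -0.30 to 0.16 without 1 library (0.16 without oxygen 2, 0.02 without sevoflurane 1). With the length correction, alone and with the block, Adk stood at 0.0504 and 0.0502 in inhibitory-like and at 0.0944 and 0.0864 in oligodendrocyte precursor-like nuclei. Adora1 in oligodendrocyte-like nuclei stood at 0.0028 with plain totals and ran from -0.19 to 0.0008 without 1 library (0.0008 without oxygen 1). Entpd1 in microglia-like nuclei stood at 0.0035 with plain totals, 0.0646 with the length correction, 0.0557 with block and length, and from -0.14 to 0.1105 without 1 library (0.0779 without oxygen 1, 0.1105 without sevoflurane 2). Nt5e in CA2-like neurons stood at 0.03 with plain totals, 0.0352 with stricter nuclei, and from -0.16 to 0.0641 without 1 library (0.0563 without oxygen 1, 0.0641 without sevoflurane 1). The cause was not tested. Of all alternatives to 23 fold changes, 316 kept direction and side of the threshold, 7 passed it and 17 turned. For 25 list calls, 262 kept both and 113 lost the call. Resolution 2.0 was not applied to the sum over all nuclei. Adora2a, with 154 UMIs, could be tested in no class at this depth.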

Other observations

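Some named classes had too few nuclei in at least 1 library to be tested. In leptomeningeal fibroblast-like nuclei Nt5e stood at 51.7 ± 17.0 CPM (SD, n = 6, 131 UMIs), above its level in all 15 tested classes, of which CA2-like neurons were highest at 16.7 CPM. Adora2b stood in the fibroblast-like nuclei at 19.97 ± 11.8 CPM (38 UMIs). Their 2 clusters differed: cluster 28, led by Bnc2, held 98 of the 131 Nt5e UMIs, at 119 CPM, and 2.43 CPM of Adora2b, while cluster 21, led by Ptgds, held 20.8 CPM of Nt5e and 22.7 CPM of Adora2b. In choroid plexus epithelium-like nuclei, found only in the 3 oxygen libraries, Adora2b stood at 20.1 ± 7.11 CPM (SD, n = 3, 15 UMIs) and Slc29a1 at 22.8 ± 2.62 CPM (19 UMIs). Against the unnamed low-UMI cluster these were 331% and 179%, within the 16.0% to 772% of its leading genes (median 20.4%). Those leading genes include Ttr, a marker of this class. By that comparison both levels are read as background. In pericyte-like nuclei Adora2a stood at 19.6 ± 13.5 CPM, from 10 UMIs. Nt5e was at 0 UMIs there, which allows up to 6.46 CPM. Mossy-like neurons held Adora1 at 66.8 ± 15.4 CPM and Adk at 110 ± 27.4 CPM. These differences between classes were not tested.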
